A study of Mus musculus with 6 samples.

Results

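The transcriptome of M2c-polarized macrophages from wild-type mice was described at baseline from 3 of the 6 RNA-seq samples of the series, chosen by their genotype label. The study examined the soluble epoxide hydrolase (sEH), and its 3 samples from sEH-/- mice were not used here. Bone marrow cells of C57BL/6N mice, 8 to 10 weeks old, were differentiated for 7 days in GM-CSF and M-CSF, both at 15 ng/mL. M1 polarization followed, with IFN-γ at 1 ng/mL together with LPS at 10 ng/mL, and TGF-β1 at 10 ng/mL then gave the M2c state. By the labels the M1 stimulus lasted 24 h and TGF-β1 48 h, and by the study's methods 12 h and 24 or 48 h, and both sources also differ in the library kit. The study describes its replicates as mice, used littermates, and mostly used females. The cells were cultured and polarized in a dish, and no unpolarized or M1 sample was analysed here, so that the values are levels and not responses to TGF-β1. Replicates 1, 2 and 3 held 4632688, 6096440 and 5448287 counts, with 16969, 17796 and 17564 genes counted at least once. The 3 values that follow a gene are those of replicates 1, 2 and 3 in this order, and errors are the SD over the 3 samples.

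Macrophages are phagocytes that differentiate in culture from marrow precursors under M-CSF and GM-CSF. LPS and IFN-γ induce the inflammatory M1 state, which is marked by the nitric oxide synthase Nos2 and by interferon-stimulated genes. TGF-β binds a type II receptor that activates the type I receptor Alk5 (encoded by *Tgfbr1*), which phosphorylates Smad2 and Smad3, and macrophages that receive TGF-β after inflammatory stimuli are known for the uptake of dying cells. The sEH, encoded by *Ephx2*, hydrolyses epoxides of polyunsaturated fatty acids to diols.

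Levels of different genes were compared as TPM, that is counts per base of annotated exon scaled to the same total in each library. Of the 19286 genes with an exonic length, 14361 (74.5%) reached 1 TPM in each of the 3 libraries. The median of these was 43.8 TPM, and 3454 genes had a mean of at least 100 TPM. Protein-coding genes held 98.5%, 98.4% and 98.4% of the counts, and 11616 of 13965 reached 1 TPM in each library. Of the long intergenic RNAs 356 of 672 did so, with a median of 7.99 TPM against 58.9 TPM for the protein-coding genes that did. The counts were spread over many genes. In replicates 1, 2 and 3, 2142, 2272 and 2306 genes held 50% of them. The 20 genes with the highest mean TPM held 1.39%, 1.15% and 1.22% of all TPM. A correction described below, which assumes a ceiling of 1 count per base, gave each of these 20 genes a higher TPM.

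**Figure D1:**
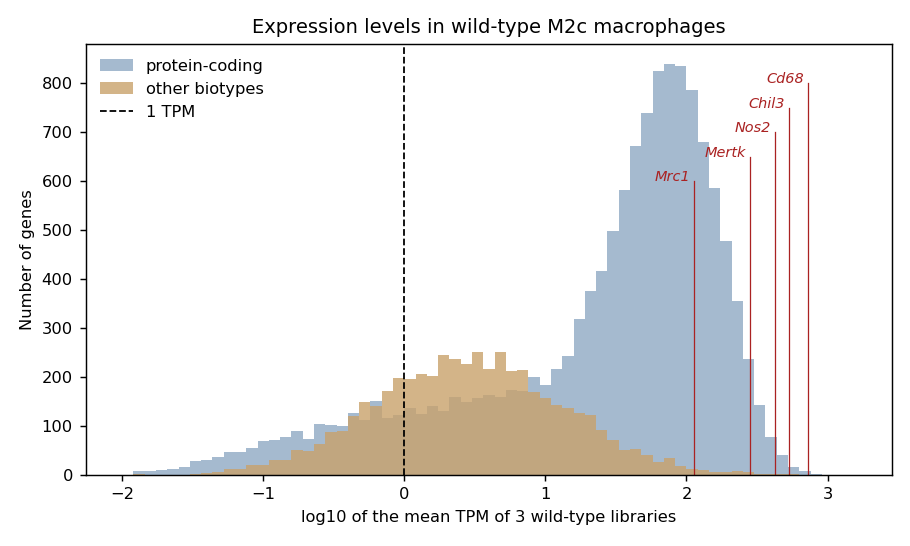
Histogram of the log10 mean TPM of 3 wild-type libraries for protein-coding genes and for all other biotypes, with the number of genes on the vertical axis. Red lines mark the mean levels of 5 marker genes, and the dashed line marks 1 TPM. The marker genes lie in the upper tail, from *Mrc1* at 114 TPM to *Cd68* at 726 TPM.

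The 20 genes with the highest mean TPM were *Ctss*, *B2m*, *Cd68*, *Psap*, *Lyz2*, *Ctsz*, *Grina*, *Hmox1*, *Mpeg1*, *Ifi30*, *Tyrobp*, *Cotl1*, *Tnfrsf1b*, *Itgb2*, *Cd274*, *Hexa*, *Creg1*, *Spp1*, *Lamp1* and *Hilpda*. Lysosomal proteases and hydrolases (*Ctss*, *Ctsz*, *Hexa*), the saposin precursor *Psap*, the lysozyme gene *Lyz2* and the pore-forming *Mpeg1* were among them. The highest read density of all 19286 genes was 0.978 counts per exonic base, as the mean of the 3 libraries. *Ctss* had 1310, 1343 and 1332 counts although the library totals differed, and the genes above 0.5 counts per base numbered 104. The authors removed duplicate reads, and the part of this in the levels of abundant genes was not tested. For the protease *Ctss*, 903, 709.7 and 764 TPM were computed, and a mean of 2772 TPM under a correction that assumes a ceiling of 1 count per base.

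Between libraries, the 3 replicates were close. Levels of a gene in different libraries were compared as CPM, that is counts scaled by library size, normalized with edgeR's TMM factors, which were 0.972, 1.004 and 1.025. Over the 10321 genes averaging 50 counts or more, which are meant below by well-counted genes, the highest library exceeded the lowest by 1.13-fold in the median and by 1.34-fold at the 90th percentile, and the median SD of log2 CPM was 0.095. Pearson's r of log2 CPM across these genes, which are not independent replicates, was 0.984 between replicates 1 and 2, 0.988 between 1 and 3 and 0.991 between 2 and 3. The common biological coefficient of variation, edgeR's estimate of the spread beyond counting error, was 0.0694. With replicate 1, 2 or 3 left out it was 0.0554, 0.0663 or 0.0837. A range of at least 2-fold was found for 57 genes (0.552%), and a range of at least 1.5-fold for 374 (3.62%). Of these 57 genes, 43 were lowest in replicate 1 and 44 highest in replicate 2. Replicate 1 was the lowest library for 32.7% of all well-counted genes and the highest for 41.7%, and replicate 2 was the highest for 33.8%. Without replicate 1, 13 genes passed 2-fold, and without replicate 2, 16 genes.

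The cells carried the marker genes of macrophages. *Cd68* (chromosome 11, 69664213 to 69666153 of mm10), which encodes a lysosomal membrane protein of macrophages, had 806, 662 and 711 TPM (726 ± 73.1 TPM, SD, n = 3). Its mean was 1636 TPM after the ceiling correction and 564 TPM per base of the longest transcript. *Mertk* (chromosome 2, 128698956 to 128802894), a receptor for the uptake of apoptotic cells, had 313, 265 and 265 TPM. *Chil3* (chromosome 3, 106147554 to 106167564), which encodes the chitinase-like protein Ym1, had 595, 489 and 510.4 TPM. *Nos2* (chromosome 11, 78920787 to 78960254), the nitric oxide synthase of M1 cells, had 417, 434 and 421 TPM. The mannose receptor *Mrc1* (chromosome 2, 14229392 to 14332057) was the lowest of these 5 markers with 125, 119 and 98.2 TPM. All 5 were above the 19.8 TPM that was the median of all genes. General macrophage markers were thus present. Of 25 M2c and resolution genes, described below, 21 reached 1 TPM in each library (74.5% of all genes). In that list 3 genes had no count. The level of *Nos2* depends on the length used, with a mean of 339 TPM per base of the longest transcript against 424 TPM per base of all exons. In bulk samples, fewer cells of a type and less RNA per cell cannot be told apart.

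**Figure D2:**
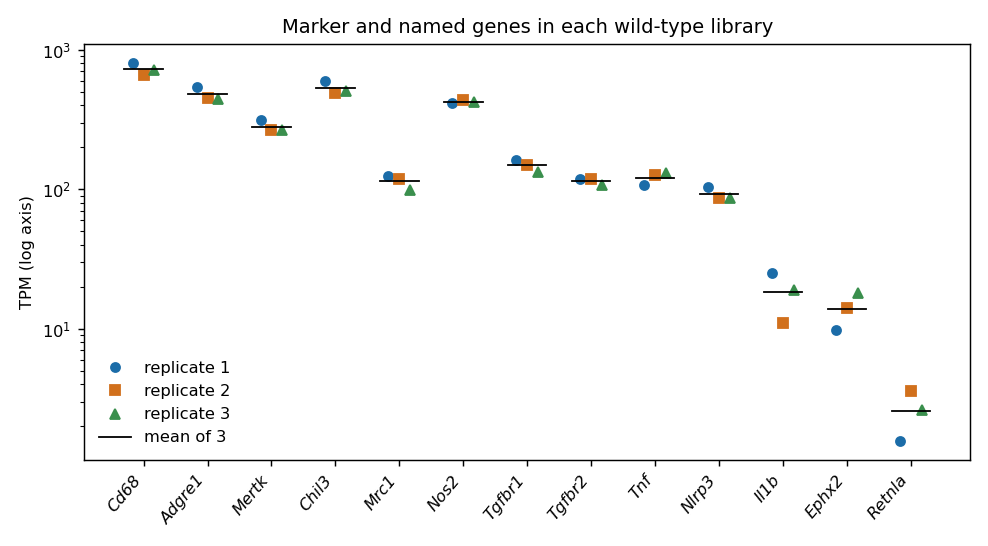
TPM (log axis) of 13 marker and named genes in wild-type replicates 1, 2 and 3 (points), with the mean of 3 as a line. *Cd68* (726 TPM) is the highest, and *Il1b* (18.2 TPM), *Ephx2* (13.9 TPM) and *Retnla* (2.59 TPM) are the lowest.

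All 15 genes of a macrophage identity list reached 1 TPM in each library, against 74.5% of all genes, and their median was 318 TPM. All 15 were also highest in replicate 1 by CPM, against 41.7% of the well-counted genes. *Lyz2* had 821, 639.6 and 683 TPM and the signalling adaptor *Tyrobp* 645, 541 and 549 TPM. The F4/80 gene *Adgre1* had 541, 451 and 447 TPM and the Fc receptor subunit *Fcer1g* 514, 423 and 456 TPM. The receptors for both growth factors of the culture were present, with 355, 299.5 and 301 TPM of the M-CSF receptor *Csf1r* and 341, 300.2 and 298 TPM of the GM-CSF receptor subunit *Csf2rb*. Of the members of this list, *Aif1* varied most (95.9, 61.8 and 84.4 TPM). Among 22 macrophage transcription factors, all reached 1 TPM (74.5% of all genes). *Cebpb* had 429, 377 and 411 TPM and *Cebpa* 396, 377 and 399 TPM, and lower levels were those of *Irf5* and the myeloid master regulator *Spi1* (means 273 and 270.1 TPM). *Pparg*, a lipid-sensing nuclear receptor, was lower and less even, with 35.2, 55.2 and 51.2 TPM.

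Of 21 M1 genes, which LPS and IFN-γ are known to induce, 18 reached 1 TPM in each library, against 74.5% of all genes, with a median of 88.3 TPM. After *Nos2* the highest were the chemokine *Ccl5* (479, 378 and 412 TPM), the arginine transporter *Slc7a2* (452, 399 and 382 TPM), the itaconate-producing enzyme *Acod1* (387, 318 and 356 TPM) and the IFN-γ-induced chemokine *Cxcl9* (238, 243 and 249.6 TPM). Cytokines at the other end of this list were *Il6*, with 1, 4 and 1 counts, and *Il12a*, with 0, 1 and 2 counts. *Cxcl10* had 8.73, 1.59 and 4.84 TPM although *Cxcl9* was abundant and even. *Marco* varied most among well-counted M1 genes (105, 169 and 159 TPM).

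Of 19 genes of the IL-4-induced M2a state, 18 reached 1 TPM in each library (74.5% of all genes), but their median was only 29.8 TPM. The list was split. *Chil3*, the transglutaminase *Tgm2* (582, 469.8 and 504 TPM), the β-glucan receptor *Clec7a* (449, 416 and 419.8 TPM) and the IL-4 receptor *Il4ra* (245, 222 and 219 TPM) were abundant, whereas *Retnla*, a hallmark of IL-4 stimulation, had 1, 3 and 2 counts (1.56, 3.59 and 2.60 TPM). Of the well-counted members the matrix gene *Fn1* varied most (33.1, 31.8 and 24.3 TPM). The chemokine *Ccl17* had 1.82, 6.98 and 6.06 TPM and *Cd209a* had no count in any of the 3 libraries. A count of 0 allows up to 3 counts, which is 0.648, 0.492 and 0.551 CPM in the 3 libraries (counting error only).

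Of 25 genes linked to the M2c state and to resolution, 21 reached 1 TPM (74.5% of all genes), with a median of 145 TPM. The complement gene *C1qb* had 569, 437 and 469 TPM and the galectin *Lgals3* 489, 392 and 423 TPM. The uptake receptor *Axl* had 323, 278 and 283 TPM and *C1qa* 313, 259 and 266 TPM. The formyl peptide receptor *Fpr1* varied most (161, 98.1 and 108 TPM). The 4 members below 1 TPM in every library included genes that define textbook M2c cells. *Cd163*, a haemoglobin scavenger receptor, the cytokine *Il10* and the phosphatidylserine receptor *Timd4* had no count in any of the 3 libraries, and *Slamf1* had 2, 3 and 2 counts.

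Of 24 TGF-β family ligands and activators, 15 reached 1 TPM in each library, against 74.5% of all genes. Their median was 3.88 TPM and their sum 1333, 1341 and 1269 TPM in the 3 libraries. The activin subunit *Inhba* had 249.7, 266 and 255 TPM and the TGF-β activator *Thbs1* 301, 209.5 and 193 TPM. The latent TGF-β anchor *Nrros* had 193, 166 and 168 TPM and *Tgfb1* 156, 148 and 151 TPM, followed by the protease *Furin* (119, 112 and 110.3 TPM). The member with the largest spread was *Gdf15*, described with the p53 targets. *Tgfb3* had 1.94, 2.76 and 4.61 TPM, *Inhbb* had no count in the 3 libraries, and *Tgfb2* had 0, 2 and 0 counts. *Smoc1*, a secreted modulator of TGF-β signalling, had 4, 8 and 13 counts (1.07, 1.64 and 2.90 TPM).

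All 12 receptors of the family that were among the genes analysed reached 1 TPM (74.5% of all genes). Their median was 53.3 TPM and their sum 959, 909 and 863 TPM. The co-receptor *Eng* had 225, 184 and 197 TPM and *Acvrl1* (Alk1) 166, 165 and 156 TPM. *Tgfbr1* (Alk5, chromosome 4, 47353222 to 47414931) had 162, 148 and 134 TPM, *Acvr1b* 125, 114 and 111 TPM and the type II receptor *Tgfbr2* 118, 118 and 107 TPM. *Acvrl1* and *Tgfbr1* were therefore above *Tgfbr2* in each library. The co-receptor *Tgfbr3* was the lowest with 1.14, 1.75 and 1.55 TPM. *Bmpr1a* varied most among well-counted receptors (21.7, 31.6 and 26.4 TPM).

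Of 22 Smads and regulators, 20 reached 1 TPM (74.5% of all genes), with a median of 53.8 TPM. The shared *Smad4* had 148, 156 and 146 TPM, *Smad2* 55.7, 64.1 and 58.4 TPM and *Smad3* 16.7, 23.4 and 19.3 TPM, so that *Smad2* exceeded *Smad3* in every library. The inhibitory *Smad7* had 44.1, 46.2 and 47.7 TPM and *Smad6* 45.8, 45.0 and 43.3 TPM. The repressors *Ski* and *Skil* had means of 213 and 128 TPM, the ubiquitin ligase *Smurf1* one of 126 TPM and *Tgif1* one of 108 TPM. The ligase *Smurf2* had 82, 91.9 and 73.1 TPM. *Smad3* had an SD of log2 CPM of 0.22.

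Of 39 TGF-β/Smad targets, 32 reached 1 TPM (74.5% of all genes), with a median of 76.0 TPM. The highest were the matrix protein *Spp1* (622, 508 and 524 TPM), *Tgm2*, *Tgfbi* (535, 399 and 432 TPM), the integrin *Itgb5* (371, 319 and 314 TPM) and the cell cycle inhibitor *Cdkn1a* (325, 307 and 326 TPM). *Id3* had 98.8, 84.1 and 92.7 TPM and *Pmepa1* 79.0, 72.6 and 76.5 TPM. The transcription factor *Snai1* had 0, 3 and 2 counts (0, 1.33 and 0.961 TPM), which is too few for a level. Other targets were low and differed widely between the libraries. *Col1a1* had 4, 121 and 34 counts, *Col1a2* 8, 171 and 58 counts, *Ccn2* 10, 112 and 93 counts, *Sparc* 11, 146 and 88 counts and *Ltbp2* 5, 78 and 57 counts. All 5 were lowest in replicate 1 and highest in replicate 2. Of 31 well-counted targets, 5 passed a 2-fold range, namely *Col1a1*, *Col1a2*, *Sparc*, *Ccn2* and *Acta2*, against 0.552% of all well-counted genes. Without replicate 1, 2 of the targets did so. *Col1a1*, *Col1a2* and *Acta2* are also in the list of stromal markers described below, and the part of stromal cells in these values was not tested. In the 250 bases before the start of the genes, the Smad box CAGAC or its reverse complement GTCTG was found in 16 of 25 RefSeq promoters (64.0%) of 21 genes of this list, and in 13861 of all 32851 promoters (42.2%).

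*Ephx2* (chromosome 14, 66084374 to 66124500, minus strand), the gene of the sEH, had 26, 49 and 57 counts, which is 9.79, 14.2 and 17.9 TPM (13.9 ± 4.05 TPM, SD, n = 3). It was thus below the median of 19.8 TPM over all genes in each library, and the libraries differed 1.77-fold between the highest and the lowest. Of 21 listed cytochrome P450 and epoxide hydrolase genes 16 were analysed. Of these 16, 13 reached 1 TPM (74.5% of all genes), with a median of 43.9 TPM. Not among the genes of the deposited counts were *Cyp1a1*, *Cyp2c23*, *Cyp2c29*, *Cyp2c65* and *Cyp2j5*. The microsomal epoxide hydrolase *Ephx1* had 246, 301 and 272 TPM and was higher than *Ephx2* in every library. The P450 reductase *Por* had 260.2, 243 and 246 TPM and *Cyp4v3* 188, 167 and 163 TPM. *Cyp4f16* had 87.2, 74.6 and 83.8 TPM and *Cyp4f13* 68.9, 68.3 and 75.5 TPM. Of the Cyp2j family, which holds enzymes that form fatty acid epoxides, *Cyp2j6* had 58.4, 47.4 and 49.1 TPM and *Cyp2j9* 1.40, 1.07 and 0.701 TPM. *Cyp1b1* varied most (4.81, 10.3 and 6.14 TPM) and was the only one of 10 well-counted members past a 2-fold range, against 0.552% of all well-counted genes, and it did not pass without replicate 1 or without replicate 2. *Ephx3* had 1, 0 and 0 counts and *Cyp2s1* 0, 0 and 1 counts.

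Of 23 genes in a list of prostanoid and leukotriene enzymes and related lipid genes, 19 reached 1 TPM (74.5% of all genes). The platelet-activating factor hydrolase *Pla2g7* had 499, 434 and 442 TPM and the 5-lipoxygenase-activating protein *Alox5ap* 356, 309 and 333 TPM. *Pla2g15* had 274, 268 and 262 TPM, the lipid chaperone *Fabp5* 251, 212 and 201 TPM and *Ltc4s* 198, 212 and 219 TPM. The lipoxygenase *Alox5* itself had 22.8, 35.5 and 28.3 TPM and was the most variable well-counted member. The constitutive cyclooxygenase *Ptgs1* had 172, 168 and 146 TPM and exceeded the inducible *Ptgs2* (31.9, 29.8 and 25.0 TPM) in each library. *Alox12* was below 1 TPM in every library, with 0, 1 and 3 counts.

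All 23 inflammasome genes reached 1 TPM (74.5% of all genes), with a median of 112 TPM. The redox-linked *Txnip* had 431, 352 and 384 TPM and *Ninj1*, which ruptures the membrane of dying cells, 367, 345 and 342 TPM. The protease *Casp1*, which matures IL-1β, had 368, 331 and 351 TPM, the cytokine *Il1a* 254, 306 and 316 TPM and the sensor *Naip2* 282, 262 and 248 TPM. The sensor *Nlrp3* had 103, 86.7 and 86.6 TPM and the adaptor *Pycard* 149, 137 and 144 TPM. *Il1b* had 25.0, 10.9 and 18.8 TPM, below its antagonist *Il1rn* (242, 227 and 235 TPM) in every library. Of the well-counted members the pore-forming *Gsdme* varied most (5.21, 3.72 and 3.42 TPM).

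Of 27 Toll-like receptors and adaptors, 25 reached 1 TPM (74.5% of all genes), with a median of 97.7 TPM. The highest were *Unc93b1*, a chaperone of endosomal receptors (482, 385 and 414 TPM), *Tlr13* (438, 367 and 370.4 TPM), the LPS co-receptor *Cd14* (394, 315 and 342 TPM), the kinase *Irak2* (263, 263 and 263 TPM) and *Tlr7* (292, 259 and 238 TPM). The surface receptors *Tlr4* and *Tlr2* had 124, 98.7 and 92.7 and 134, 80.5 and 88.2 TPM. *Tlr2* was the most variable member, highest in replicate 1. *Tlr5*, the flagellin receptor, and *Tlr11* were below 1 TPM in every library, with 1, 0 and 0 and 1, 0 and 1 counts.

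Of 41 inflammatory NF-κB targets, 39 reached 1 TPM (74.5% of all genes), with a median of 79.1 TPM. After *Nos2* and *Ccl5* the highest were *Ccl2* (405, 294 and 368 TPM), *Tnfaip2* (297, 298 and 302 TPM) and *Il1a*. *Tnf* had 107, 126 and 131 TPM. *Cxcl3* varied most among the well-counted (26.8, 16.2 and 16.5 TPM), and *Csf3* had no count in the 3 libraries. Among 23 chemokines, *Cxcl16* (471, 403 and 422 TPM), *Ccl5*, *Ccl2*, *Ccl6* (366, 331 and 353 TPM) and *Pf4* (354, 316 and 322 TPM) were the highest, and 21 reached 1 TPM (74.5% of all genes). Of 18 chemoattractant receptors, 12 did (74.5% of all genes), with *Fpr1* the most variable and, as the highest, *C3ar1* (469, 393 and 417 TPM), *Ccr1* (373, 305 and 327 TPM), *Cxcr4* (336, 281 and 304 TPM), *Fpr2* (227, 154 and 183 TPM) and *Cmklr1* (200.2, 176 and 166 TPM). *Ccr2*, which marks classical monocytes, had 5, 2 and 1 counts. Of 20 immediate early genes, 18 reached 1 TPM (74.5% of all genes), with *Atf3* (458, 414 and 434 TPM), *Jund*, *Fos*, *Junb* and *Jun* highest and *Fosl1* the most variable (16.1, 33.5 and 25.3 TPM).

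All 46 interferon-stimulated genes reached 1 TPM in each library, against 74.5% of all genes, and their median was 207 TPM. Of the 46, 37 had a mean of at least 100 TPM, against 17.9% of all genes. The restriction factor *Bst2* had 588, 474 and 519 TPM and the guanylate-binding protein *Gbp2* 499, 431 and 457 TPM. *Ifit2* had 433, 351 and 390.1 TPM, the antiviral *Rsad2* 376, 327 and 349.8 TPM and *Isg15* 354, 292 and 338 TPM. *Cmpk2* varied most among the well-counted (144, 77.0 and 126 TPM). The interferon-stimulated response element (ISRE) is the site that interferon-activated factors bind in such genes. Searched as GAAA, any 2 bases, GAAA, or on the other strand TTTC, any 2 bases, TTTC, it was found in 16 of 40 promoters (40.0%) of 34 genes of the list, and in 978 of all 32851 (2.98%). The 2 most abundant members with such a match and no annotated exon in the window are shown for the 250 bases before their start, on the strand of the gene, with the match in capitals. In *Bst2*, 2 matches overlap. The sequences are from RefSeq (GRCm38.p6), for *Bst2* from chr8:71537473-71537722 (minus strand) and for *Rsad2* from chr12:26456453-26456702 (minus strand). A match is a description of the letters and not a measured binding site.
Bst2: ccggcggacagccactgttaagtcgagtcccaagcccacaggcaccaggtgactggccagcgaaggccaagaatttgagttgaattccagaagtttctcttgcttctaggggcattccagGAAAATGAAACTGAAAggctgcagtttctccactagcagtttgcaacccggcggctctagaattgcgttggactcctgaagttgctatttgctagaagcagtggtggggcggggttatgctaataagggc
Rsad2: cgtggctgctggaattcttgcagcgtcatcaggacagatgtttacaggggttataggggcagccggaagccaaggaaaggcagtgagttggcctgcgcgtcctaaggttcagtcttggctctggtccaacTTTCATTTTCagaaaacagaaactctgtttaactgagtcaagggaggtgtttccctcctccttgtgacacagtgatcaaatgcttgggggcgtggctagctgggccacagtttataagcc

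All 18 genes of MHC class II presentation and costimulation reached 1 TPM (74.5% of all genes), with a median of 112 TPM. Besides *Ctss*, the PD-L1 gene *Cd274* (592, 532 and 544 TPM), the invariant chain *Cd74* (424, 399 and 397 TPM) and the class II genes *H2-Eb1* (236, 247 and 239 TPM) and *H2-Ab1* (242, 231 and 238 TPM) were the highest. *Havcr2* had 203, 163 and 153 TPM and was the most variable well-counted member, and the class II transactivator *Ciita* had 13.6, 16.0 and 12.2 TPM.

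Of 43 scavenger and phagocytosis receptors, 37 reached 1 TPM (74.5% of all genes), with a median of 159 TPM. After *Cd68* the highest were the integrin subunit *Itgb2* (622, 528 and 539.8 TPM), the fungal receptor *Clec4n* (523, 486 and 494 TPM) and the Fc receptors *Fcgr3* (549, 449 and 481 TPM) and *Fcgr4* (540.1, 445 and 481 TPM). *Cd36*, a receptor for oxidized lipoproteins, had 434, 387 and 394 TPM. *Lrp1*, a large endocytic receptor, held more counts than any other member (6739, 7815 and 5956). *Itgb3* varied most and was the only 1 of 37 well-counted members past a 2-fold range (53.1, 116 and 74.0 TPM), against 0.552% of all well-counted genes. It did not pass without replicate 1 or without replicate 2.

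After macrophage identity, lysosomal genes had the highest median of the 43 lists. The lysosomal list holds hydrolases, cathepsins and other lysosomal genes. All but 1 of its 44 genes reached 1 TPM in each library (74.5% of all genes), with a median of 261 TPM. The exception was the cathepsin *Ctse*, with 2, 3 and 5 counts. *Psap*, the precursor of the saposins, had 823, 655 and 695 TPM, *Ctsz* 783, 624 and 675 TPM and *Hexa* 608, 514 and 539.9 TPM. *Ctsc* varied most (316, 217 and 233 TPM). TFEB-type factors bind E-boxes in lysosomal genes, and the E-box CACGTG, which reads the same on both strands, was found in 10 of 39 promoters (25.6%) of 34 genes of this list and in 1978 of all 32851 (6.02%). The 2 most abundant members with a match and no annotated exon in the window were *Lamp1* (611, 506 and 536 TPM, chr8:13158911-13159160, plus strand) and *Lgmn* (528, 449 and 471 TPM, chr12:102439093-102439342, minus strand). The window of *Lamp1* holds 4 matches and that of *Lgmn* 1, shown in capitals as above.
Lamp1: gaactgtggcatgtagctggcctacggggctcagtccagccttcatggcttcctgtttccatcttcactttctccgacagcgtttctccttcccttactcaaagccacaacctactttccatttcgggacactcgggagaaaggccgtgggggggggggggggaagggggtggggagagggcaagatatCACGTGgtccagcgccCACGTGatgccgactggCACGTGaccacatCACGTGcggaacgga
Lgmn: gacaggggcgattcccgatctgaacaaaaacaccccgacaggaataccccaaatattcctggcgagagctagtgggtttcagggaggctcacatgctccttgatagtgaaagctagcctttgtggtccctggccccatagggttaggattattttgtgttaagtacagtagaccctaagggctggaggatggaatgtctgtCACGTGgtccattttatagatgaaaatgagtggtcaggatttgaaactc

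Of 34 lipid-handling genes, 33 reached 1 TPM (74.5% of all genes), with a median of 187 TPM. They were led by *Spp1*, *Lgals3*, *Gpnmb* (464, 393 and 401 TPM), *Cd36* and the lipid droplet protein *Plin2* (376, 321 and 344 TPM). The cholesterol exporters *Abca1* and *Abcg1* had 379.7, 300.4 and 261 and 253, 249 and 248 TPM, and *Pparg* was the most variable member. Of 28 genes of the matrix and its proteases, 23 reached 1 TPM (74.5% of all genes), and abundant proteases stood beside the collagens *Col1a1* and *Col1a2*, which had means of 5.95 and 4.71 TPM. *Adam8* had 554, 476 and 493 TPM, *Mmp13* 552, 472 and 479 TPM and *Mmp8* 526, 449 and 449.6 TPM, while *Mmp3* had no count in the 3 libraries.

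Microglia are macrophages that depend on TGF-β. Of 19 listed microglia-type genes 17 were analysed, and 14 of these reached 1 TPM, against 74.5% of all genes. *Sall1* and *Siglech* were not among the genes of the deposited counts. The protease inhibitor *Cst3* had 427, 362 and 379 TPM. The lipid carrier *Apoe* had 379.5, 301 and 319 TPM and the lipid receptor *Trem2* 197, 173 and 173 TPM, whereas the microglial receptor *P2ry12* had 9.56, 2.54 and 3.67 TPM. Of 22 genes of alveolar macrophages, whose development needs GM-CSF and TGF-β, 21 reached 1 TPM (74.5% of all genes), and 11 had a mean of at least 100 TPM (17.9% of all genes). Besides *Chil3* and *Ccl6*, the proton pump subunit *Atp6v0d2* had 570.2, 505 and 528 TPM. *Cd9* had 318, 281 and 298 TPM and *Itgax* 294, 290 and 251 TPM, and the alveolar macrophage marker *Siglecf* had 17.4, 26.8 and 17.6 TPM. *Sparc* and *Marco*, respectively, were the most variable members of these lists.

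All 31 genes of arginine, itaconate and redox metabolism reached 1 TPM (74.5% of all genes), with a median of 140.5 TPM. The haem oxygenase *Hmox1* had 700.1, 588 and 627 TPM and the NADPH oxidase subunits *Cyba* and *Cybb* had 522, 464 and 489.8 and 525, 444 and 453 TPM. The arginine transporter *Slc7a1* varied most (18.7, 33.5 and 22.8 TPM), whereas *Slc7a2* was more than 10 times as abundant in each library. The 21 glycolysis genes, of which *Aldoa* has 2 identifiers in the table, had a median of 143 TPM and the 25 nuclear genes of the respiratory chain one of 181 TPM. The myeloid hexokinase *Hk3* (454, 394 and 407 TPM) led the former, with *Aldoa*, *Slc2a1*, *Ldha* and *Tpi1* next, and *Sdhd* (485, 426 and 465 TPM) the latter, with *Ndufa2*, *Atp5a1*, *Ndufa1* and *Sdha* next. *Slc2a3* and *Atp5b* varied most in their lists. The 26 ribosomal protein genes had a median of 126 TPM, from 38.6 to 427 TPM (*Rplp1*), and *Rps9* varied most. Of 17 common reference genes, *B2m*, *Actb*, *Hprt*, *Rplp0* and *Polr2a* were the highest, *Actb* varied most, and *Gapdh* had 83.5, 74.3 and 72.0 TPM. Reads that fit several places were removed by the authors, and levels of genes with near-identical copies, among them *Gapdh*, *Ppia*, *Eef1a1* and many ribosomal protein genes, are uncertain.

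Proliferation genes were low. Of 30, 27 reached 1 TPM (74.5% of all genes) but their median was 11.5 TPM. The DNA clamp *Pcna* had 126, 109.7 and 112 TPM and the helicase subunit *Mcm3* 79.3, 73.5 and 76.8 TPM. *Mcm4* had 70.7, 75.0 and 76.0 TPM, *Mcm6* 64.4, 62.6 and 64.0 TPM and *Cdt1* 56.6, 62.6 and 69.0 TPM, whereas *Mki67*, which marks cycling cells, had 11.8, 19.4 and 13.4 TPM and was the most variable well-counted member. Of 28 p53 targets, 27 reached 1 TPM (74.5% of all genes), with a median of 102 TPM. The cyclin *Ccng1* had 374, 386 and 391 TPM and *Phlda3* 354, 373 and 395 TPM. *Cdkn1a* had 325, 307 and 326 TPM, the p53 ubiquitin ligase *Mdm2* 197, 216 and 213 TPM and the kinase *Plk2* 183, 202 and 194 TPM. *Gdf15*, a stress-induced cytokine, varied most with 48.5, 145 and 136 TPM, and its replicates 2 and 3 were close to each other and well above replicate 1.

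**Figure D3:**
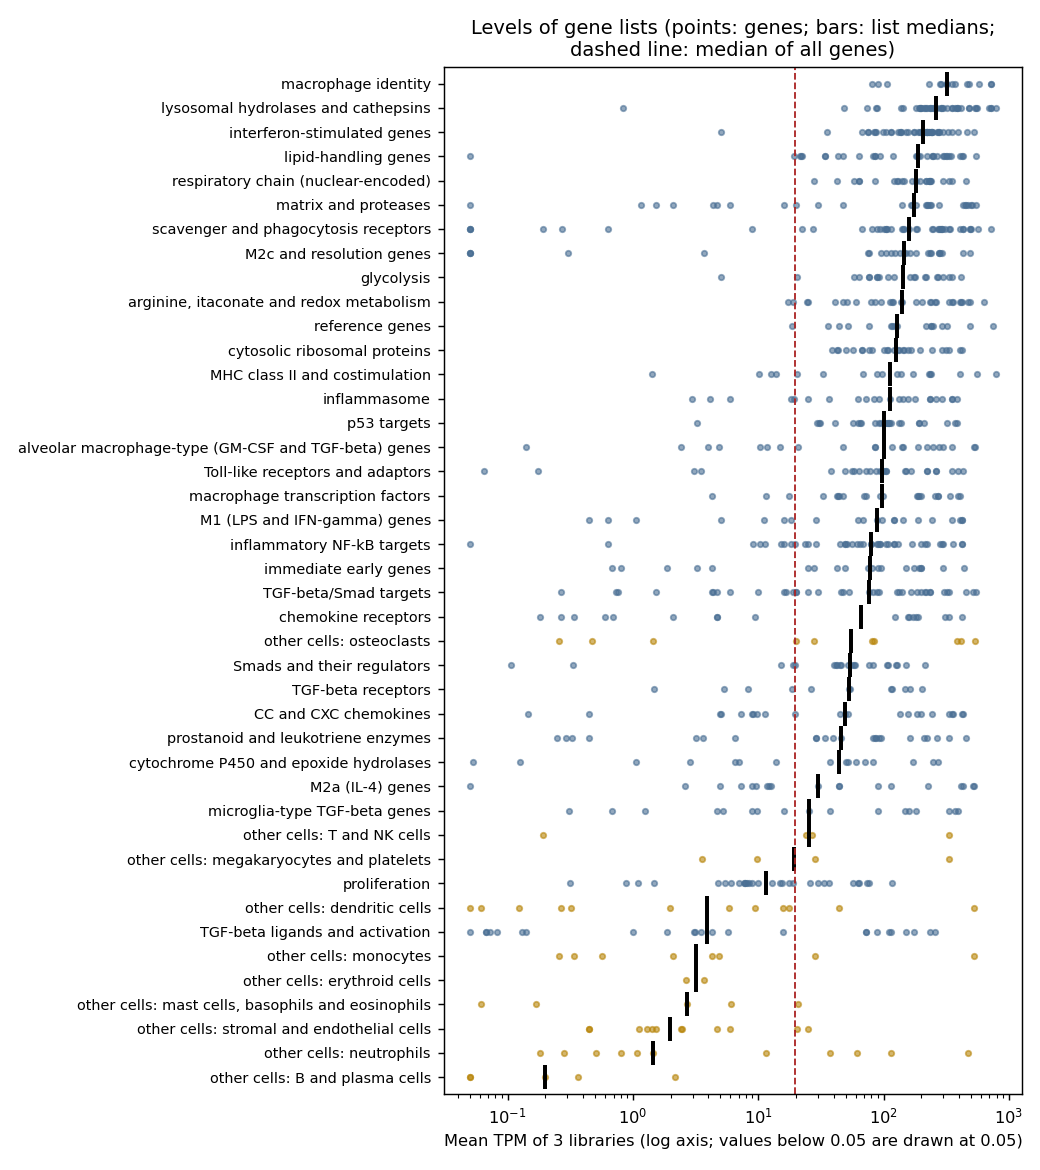
Mean TPM of 3 libraries (log axis) for the genes of each list with at least 2 genes analysed (points), with list medians (bars) and the median of all genes (19.8 TPM, dashed line). Macrophage identity, lysosomal and interferon-stimulated genes have the highest medians, and markers of B cells, neutrophils and stromal cells the lowest.

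Markers of other cell types differed by list in their levels. Summed levels of a list are given for replicates 1, 2 and 3. Of 15 neutrophil markers 11 were among the genes analysed and summed to 740.2, 674 and 704 TPM. Most of this was *Mmp8*, followed by *S100a8* (105, 116 and 126 TPM), *Lcn2* (59.6, 53.9 and 72.5 TPM), *Csf3r* (42, 34.6 and 36.3 TPM) and *Prtn3* (5.94, 14.9 and 13.9 TPM), whereas *S100a9* had 0, 1 and 2 counts, *Elane* 0, 1 and 1 and *Cxcr2* 1, 1 and 0 counts. Of 8 monocyte markers the sum of 636, 524 and 557 TPM was mainly *Chil3*, which macrophages also express. *Ly6c2* had 31.1, 23.8 and 30.4 TPM. Of 14 dendritic cell markers 12 were analysed, and *Bst2*, itself interferon-stimulated, made up most of 669, 581 and 616 TPM. *Clec9a* had 39.2, 50.6 and 42.6 TPM, *Zbtb46* 4.62, 7.59 and 5.40 TPM and *Xcr1* 1, 1 and 0 counts. Of 14 T and NK cell markers 4 were analysed and summed to 394, 388 and 375 TPM, with *Il7r* at 351, 331 and 323 TPM, *Cd4* at 21.6, 33.6 and 24.7 TPM, *Lck* at 21.1, 24.0 and 27.7 TPM and *Klrb1c* at 1, 0 and 1 counts.

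Of 10 B and plasma cell markers 5 were analysed and summed to 1.56, 2.68 and 4.08 TPM, with *Vpreb1* highest and *Pax5* without a count. Of 10 erythroid markers 2 were analysed (*Klf1* and *Epor*), with a sum of 3.53, 5.95 and 9.52 TPM. Of 11 markers of mast cells, basophils and eosinophils 5 were analysed, with a sum of 20.6, 37.9 and 30.4 TPM that was mainly *Siglecf*. All 10 osteoclast markers were analysed, with a sum of 1603, 1510 and 1525 TPM. *Atp6v0d2*, *Ctsk* (443, 388 and 406 TPM) and *Acp5* (409, 364 and 381 TPM) were abundant, but *Calcr*, which marks mature osteoclasts, had 2, 3 and 2 counts and *Oscar* 0, 2 and 0 counts. Of 7 megakaryocyte and platelet markers 4 were analysed, with a sum of 391, 362 and 365 TPM led by *Pf4* and with *Vwf* at 24.2, 31.7 and 29.7 and *Itga2b* at 2.75, 5 and 3 TPM. *Xist*, the RNA of the inactive X chromosome of females, had 176, 179 and 113 TPM and was lowest in replicate 3.

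Stromal and endothelial markers had the largest median SD of log2 CPM of the lists (1.36, over 4 well-counted genes), which was 0.63 without replicate 1, 1.35 without replicate 2 and 1.85 without replicate 3. Of 14 such markers 12 were analysed, and their sum was 46.5, 90.3 and 65.2 TPM, lowest in replicate 1 and highest in replicate 2. *Acta2* was the most abundant (12.8, 31.7 and 30.9 TPM), *Col3a1* had 2, 44 and 15 counts, and the endothelial gene *Cdh5* 8, 7 and 2 counts. Of the 4 well-counted ones, 3 (*Col1a1*, *Col1a2* and *Acta2*) passed a 2-fold range and were lowest in replicate 1, while *Kdr* was highest there (24.6, 20.7 and 16.1 TPM). Of all well-counted genes, 0.552% passed 2-fold and 32.7% were lowest in replicate 1. The part of stromal cells in the spread of the genes described next was not tested.

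The 5 well-counted genes with the largest SD of log2 CPM are known for proteins of the extracellular matrix or associated with it. They were *Col1a1* (2.26), *Col1a2* (2.01), *Sparc* (1.75), *Ccn2* (1.72) and the proteoglycan *Bgn* (1.63, 11, 126 and 77 counts), followed by *Wfikkn2* (12, 90 and 54 counts). Without replicate 1 the SDs of these 5 genes were 1.20, 1.01, 0.42, 0.096 and 0.41, in the same order. In the list of the matrix and its proteases, 3 of 23 well-counted genes passed 2-fold, against 0.552% of all well-counted genes, and 2 did so without replicate 1. The 15 most variable genes further included *Gdf15*, *Gm49599*, *Smim38*, *Kynu*, *Crip2*, the collagen-crosslinking enzyme *Lox*, the actin *Acta2*, *Ifi203-ps* and *Traf4*. Of these 15, *Kynu*, an enzyme of tryptophan breakdown, had 95, 45 and 84 counts, and *Ifi203-ps* had 69, 36 and 66 counts. In both, replicate 2 was the lowest although it was the deepest library. The LIM-domain gene *Crip2* had 16.5, 43.1 and 40.1 TPM. *Inka2*, an actin regulator, had 23.1, 38.9 and 35.9 TPM and the tetraspanin partner *Ptgfrn* 63.2, 87.7 and 54.3 TPM. Both were highest in replicate 2 and neither passed 2-fold. Among genes averaging 500 counts or more, the most even were *Pacc1* (127, 127 and 127 CPM), *Klhl22*, *Glipr2*, *Erp44* and *Atf2*. *Nos2* was also even, with 437, 436 and 427 CPM, and had 0.530 counts per base.

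**Figure D4:**
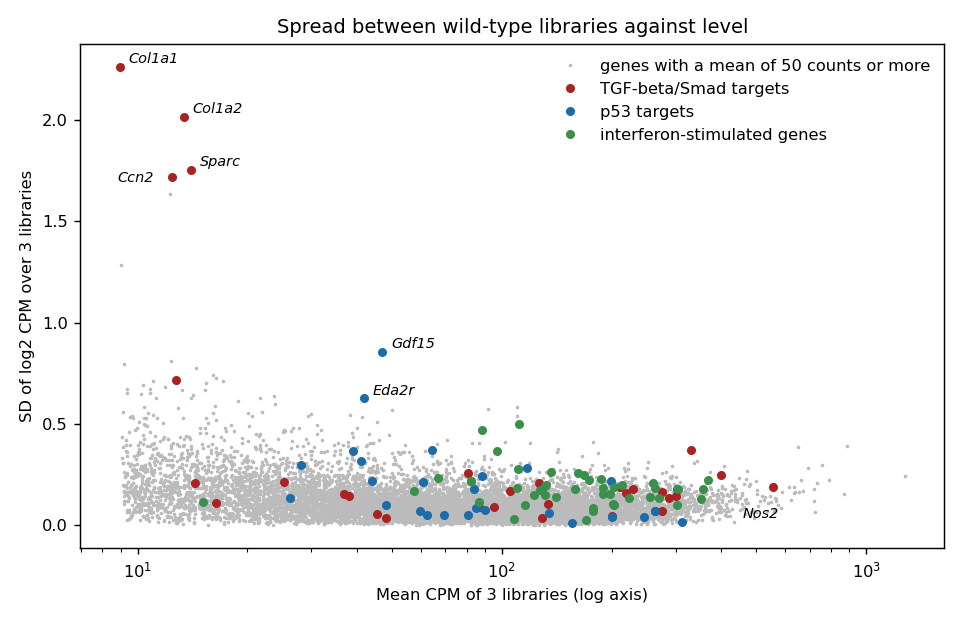
SD of log2 CPM over 3 wild-type libraries against the mean CPM (log axis) for well-counted genes (50 or more on average), with 3 gene lists in color. *Col1a1*, *Col1a2*, *Sparc* and *Ccn2* lie at the top at low CPM, with *Bgn* and *Wfikkn2* as the grey points next below. Within the list of interferon-stimulated genes, the highest is *Cmpk2* at 0.50.

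Of the 41 lists with well-counted genes, some of which share members, 34 had a median log2 CPM above the mean of the 3 libraries in replicate 1 and 7 had a lower one. With scaling by library totals alone these were 30 and 11 lists. Macrophage identity genes stood at 0.19, −0.12 and −0.055 and chemoattractant receptors at 0.19, −0.15 and −0.039. The median log2 CPM of the 27 well-counted p53 targets differed from the mean of the 3 libraries by −0.072, 0.11 and 0.017. With the ceiling correction the value in replicate 1 was −0.13. They were lowest in replicate 1 in 17 of 27 cases, against 32.7% of all well-counted genes. *Gdf15* and *Eda2r* (18.1, 45.0 and 29.4 TPM) passed 2-fold, against 0.552% of all well-counted genes, whereas 0 of the p53 targets did so without replicate 1 and 1 without replicate 2. The 45 interferon-stimulated genes differed by 0.17, −0.18 and 0.0013, and 41 were highest in replicate 1, against 41.7% of all well-counted genes. The 43 lysosomal genes differed by 0.15, −0.10 and −0.048, and 40 were highest in replicate 1. The inflammatory NF-κB targets differed by 0.018, −0.020 and 0.020, and their value in replicate 1 changed sign to −0.022 when CPM were scaled by library totals alone and was 0.0019 with the ceiling correction. Over all well-counted genes the medians were 0.013, −0.0011 and −0.0088. Without TMM, the p53 targets (−0.11), interferon-stimulated genes (0.13) and lysosomal genes (0.11) kept their direction in replicate 1.

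Sequencing depth moved with some of these differences, and no cause of them was tested. The inflammatory NF-κB targets did not follow the order of library size. Replicate 1 was the smallest and replicate 2 the largest library, and genes with many counts per base had more CPM in the smaller one. Among the 567 genes with 0.01 to 0.02 counts per base, the median log2 CPM of replicate 1 minus replicate 2 was −0.11, and among the 47 genes with 0.6 to 1 counts per base it was 0.31 (0.20 after the ceiling correction). With all libraries thinned to the smallest one, the medians in replicate 1 were −0.068 for p53 targets, 0.19 for interferon-stimulated genes and 0.15 for lysosomal genes. With the ceiling correction, those of the latter lists were 0.17 and 0.13. Thinning drew from counts after duplicate removal, so that it cannot show what that removal did at the original depths.

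**Figure D5:**
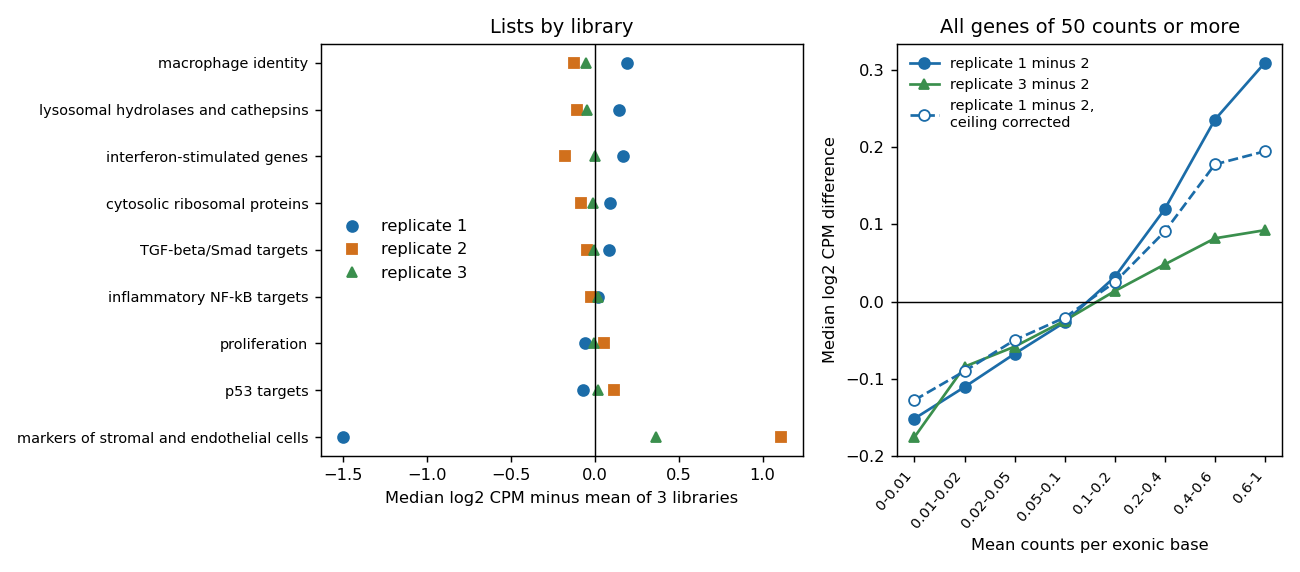
Left, median log2 CPM of 9 gene lists in each library minus the mean of 3 libraries (well-counted genes, 50 or more on average). Right, median log2 CPM difference between libraries for all such genes, by mean counts per exonic base. Stromal markers are lowest in replicate 1, interferon-stimulated genes highest there, and the difference between replicates 1 and 2 changes sign along the right panel.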

How the data were processed

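Counts per gene were used as the authors deposited them. Per the study's methods, with tool versions per the labels' processing notes, reads were trimmed with Trimmomatic 0.39 and aligned to mm10 with STAR 2.7.7a, duplicates (Picard 2.21.7) and multi-mapping, ribosomal and mitochondrial reads were removed, and exonic reads were counted by strand with featureCounts 1.6.5. The submitters' notes also name DESeq2 1.30.0. The methods name other versions of STAR, Picard, featureCounts and DESeq2. The table held 19309 genes, 23 of them without an exonic length and 685 without a count in the wild-type libraries, which held 4632688, 6096440 and 5448287 counts. No pair of libraries was identical. Some listed genes were not among the genes of the deposited counts and were not analysed. Unless a larger listed number is given, the list sizes, shares and medians leave them out.

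TPM were computed from counts and the union of GENCODE exons (mm10), and CPM with TMM factors in edgeR 4.0.16 (R 4.3.3). The biological coefficient of variation was estimated by edgeR on genes with a mean above 5 counts. Spread was described for a mean of at least 50 counts. Python 3.11.15 with pandas 2.3.3, numpy 2.4.6 and matplotlib 3.10.9 was used otherwise, and calculations were tested on simulated data. No statistical test was made, since 1 group is described. Alternatives were other thresholds, longest transcripts, DESeq2 1.42.0 size factors and dispersions, library totals, thinning to the smallest library, a correction for a ceiling of 1 count per base and leaving out each replicate.

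Named genes are the given markers, the 20 with the highest TPM, in each of 43 lists the 5 highest, the most variable and defining members below 1 TPM, the 15 most and 5 least variable genes, and genes the study names. A few further members (such as *Il1rn*, *Alox12* and *Ltbp2*) were chosen after their values were seen, and some genes within this rule are not reported here. Members and lists were chosen with earlier results of these data known. The counts of lists above the median of all genes or above the mean of the libraries in replicate 1, the motifs searched and the promoters shown were chosen after the data were seen. Promoter sequences are from RefSeq (GRCm38.p6).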

Additional observations from a re-analysis of the deposited data

How the results depend on the processing

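No paired analysis was possible because only 1 group is described. The number of expressed genes (14361) ranged from 13333 at 2 TPM to 15746 at 1 TPM on the mean, and 50% of the counts were held by 2094 to 2293 genes over the alternatives. The count of genes past a 2-fold range (57) depended on the count minimum, with 212 genes at a mean of 20 counts, 15 at 100 and 1081 above 5, where fewer counts give more counting error. It was 13 without replicate 1, 16 without replicate 2 and 48 without replicate 3, and 42 to 64 under the other scalings, thinning and the ceiling correction. The common biological coefficient of variation (0.0694) was 0.113 as the median of DESeq2's dispersions over genes, a per-gene estimate, and 0.0554 to 0.0837 with a replicate left out (lowest without replicate 1, highest without replicate 3). Of the lists, 38 had a median SD of log2 CPM above that of all genes, and 23 without replicate 1 to 37 without replicate 3; the cause was not tested. The number of lists with a median TPM above that of all genes was 33 or 34 under each alternative run. With the longest transcript, the median TPM of 27 of 43 lists moved by more than 1 SD between libraries, and with the ceiling correction that of 15 lists. Depth limits genes with few counts, for some of which only counts are given. The TPM given for others, such as *Retnla*, *Snai1* and *Smoc1*, rest on few counts and are imprecise. The estimate of the spread from 3 libraries is coarse.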
